A study of Mus musculus with 12 samples.

Results

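Levels of 9 genes of autonomic signaling were described in the atria and ventricles of mice with and without expanded CUG repeat RNA in the heart. The genes were the receptors Adrb1, Adra1a, Adra1b, Chrm2 and Adora1 and the regulators of G protein signaling Rgs2, Rgs4, Rgs5 and Rgs6. They were found by symbol among the 51826 entries of the deposited count table, and each of the 9 symbols matched a single entry. All 9 passed the filter on low counts in each comparison.

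The study modeled the heart disease of myotonic dystrophy type 1, in which an expanded CTG repeat of DMPK is transcribed into repeat RNA. CUG960 +dox mice carried TREDT960I, a tetracycline-responsive transgene with 960 interrupted CTG repeats inside human DMPK exons, on both alleles, and a hemizygous MHCrtTA transgene, in which the cardiomyocyte promoter of α myosin heavy chain drives a tetracycline transactivator that needs dox. Hemizygous MHCrtTA alone was the genotype of the MHCrtTA +dox controls, so that the transactivator and dox chow were shared by both groups and the repeat transgene was not. All mice were FvB females aged 10 weeks, with dox given from postnatal day 1. Controls are numbered V327, V333 and V334 and CUG960 +dox mice V119, V120 and V123. Each mouse gave 1 atrial and 1 ventricular library, so that each of the 4 groups had 3 mice.

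Sympathetic and parasympathetic nerves set the rate and force of the heart through receptors coupled to G proteins. The product of Adrb1, the β1 adrenergic receptor, acts through Gs and adenylyl cyclase. The α1 adrenergic receptors of Adra1a and Adra1b act through Gq and phospholipase C. The M2 muscarinic receptor (Chrm2) and the A1 adenosine receptor (Adora1) act through Gi and Go, whose βγ subunits open the potassium channel formed by the products of Kcnj3 and Kcnj5 and slow the heart. RGS proteins shorten the signals through Gi, Go and Gq, because they speed the hydrolysis of GTP by these α subunits. RGS6 is known to restrain the M2 pathway in sinoatrial and atrial myocytes together with Gβ5, RGS4 and RGS2 act on Gq, and RGS5 is abundant in pericytes and vascular smooth muscle.

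Levels are given as normalized CPM, which are counts scaled by the TMM library size in CPM, as the mean ± SD of 3 mice. Library totals were between 116127966 and 160676189 counts. CUG960 +dox mice were compared with controls within each tissue by the quasi-likelihood test of edgeR, and P values were adjusted after Benjamini and Hochberg across the genes of that comparison. A gene was called where the adjusted P value was under 0.05 and the fold change was at least 1.5 in either direction. Log2 fold changes are given with the SE of the same fit.

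The labelled tissues were checked against marker genes. The summed level of 6 atrial markers, led by Nppa, was 27849 ± 1367 CPM in control atria and 111 ± 44.0 CPM in control ventricles. The 5 ventricular markers, led by Myl2, summed to 1080 ± 52.5 CPM in control atria and 10797 ± 1221 CPM in control ventricles. Some libraries stood apart from others of their group. The atrial library of control V334 had 112.5 CPM of the immediate early gene Fos, where the other control atria had 2.92 CPM (V327) and 2.23 CPM (V333). Egr1 and Atf3, from the same gene class, were at 131 and 352 CPM in V334 and at most 15.4 and 47.9 CPM in the other control atria. Results that rest on V334 are therefore also given without this mouse. The ventricular library of V123 had 55.9 CPM of the atrial light chain gene Myl7, against 0.192 CPM in V119 and 0.304 CPM in V120, and those of V327, V333 and V334 had 8.02, 4.98 and 19.3 CPM. The share of counts on mitochondrial genes ran from 10.9% to 12.2% in atria, from 19.6% to 20.5% in control ventricles and from 15.3% to 18.4% in CUG960 +dox ventricles, so that the ventricular groups did not overlap; its part in the ventricular results was not tested.

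Adora1 and Rgs6 were upregulated in CUG960 +dox mice in both tissues and were the only members called in either. In atria, 969 of 17650 genes tested were called (5.49%), in either direction. In ventricles, 804 of 16909 were called (4.75%). The groups did not overlap for 35.7% of the genes tested in atria and 31.2% in ventricles. Of the 9 members, 3 had groups that did not overlap in atria and 6 in ventricles. The median log2 fold change of the members was −0.13 in atria and −0.14 in ventricles, and that of all genes tested was −0.01 in both.

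**Figure D1:**
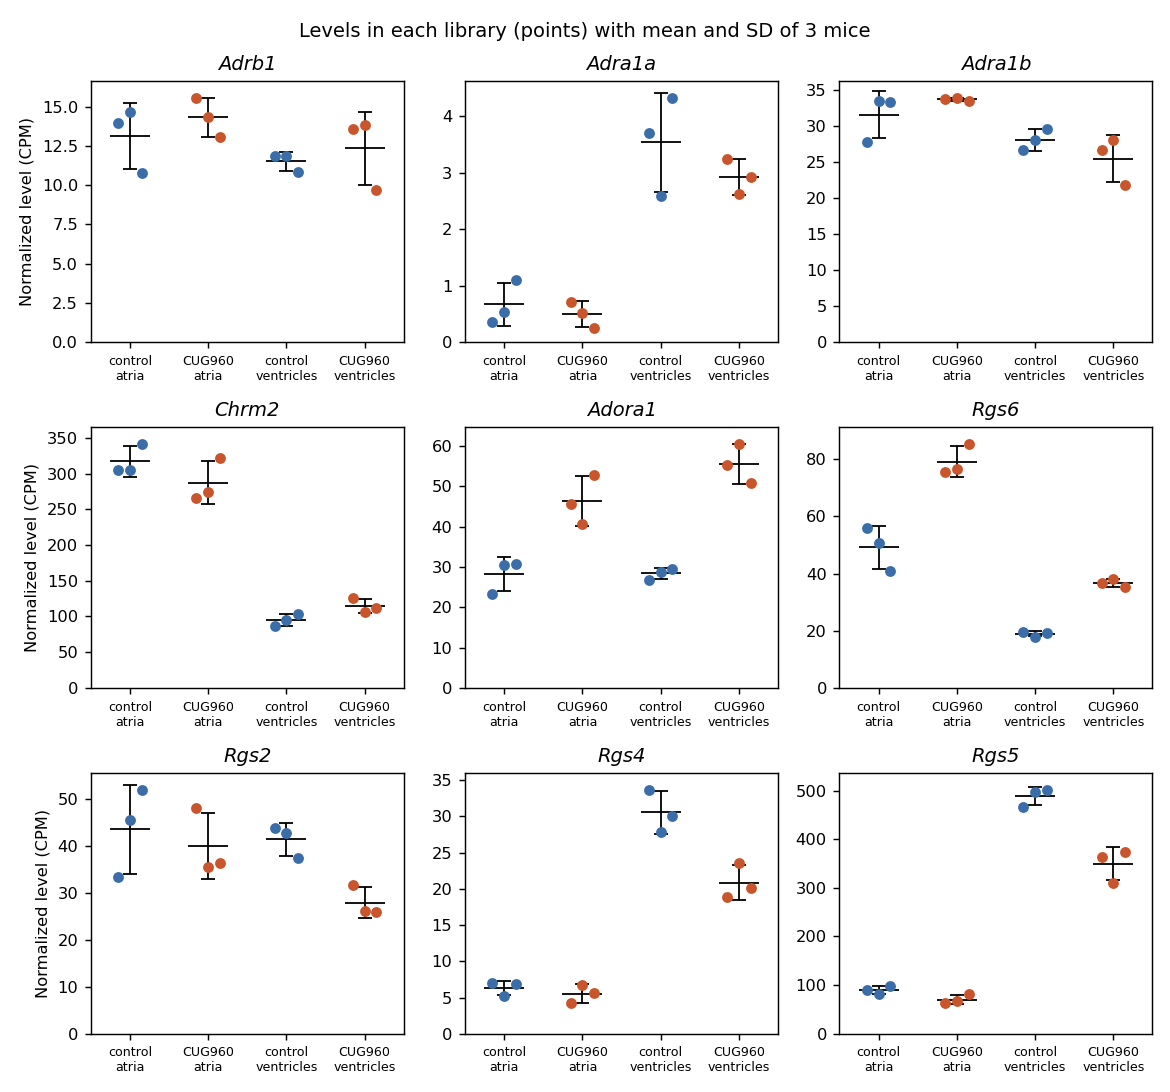
Normalized level (CPM, y axis from 0) of each of the 9 genes in the 12 libraries, by genotype and tissue. Points are mice and bars are the mean and SD of 3. The CUG960 +dox points of Adora1 and Rgs6 lie above all control points of the same tissue, and Rgs4, Rgs5 and Adra1a are lower in atria than in ventricles in both genotypes.

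Adora1 (chromosome 1, 134199223 to 134235431, minus strand, GENCODE M21 on GRCm38) encodes the A1 adenosine receptor, through which adenosine slows the sinoatrial node and atrioventricular conduction. In control atria its level was 23.3 CPM in V327, 30.5 CPM in V333 and 30.6 CPM in V334. In CUG960 +dox atria it was 45.6 CPM in V119, 40.6 CPM in V120 and 52.8 CPM in V123. The groups did not overlap, and the mean rose from 28.2 ± 4.19 to 46.3 ± 6.17 CPM (log2 fold change 0.72, SE 0.13, adjusted P value 0.00997).

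Control ventricles had 26.8, 28.9 and 29.6 CPM of Adora1 (V327, V333 and V334), close to the level of control atria. CUG960 +dox ventricles had 55.3 CPM in V119, 60.5 CPM in V120 and 50.7 CPM in V123. The lowest CUG960 +dox ventricle was above the highest control ventricle, and the log2 fold change was 0.97 (SE 0.0867, adjusted P value 0.000263), a fold change of 1.96. Mybph overlaps Adora1 on the other strand and had a mean of 0.0767 CPM.

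Rgs6 (chromosome 12, 82588292 to 83162056, plus strand) had 56.0 CPM in V327, 50.6 CPM in V333 and 41.0 CPM in V334 in control atria. CUG960 +dox atria had 75.4, 76.7 and 85.4 CPM (V119, V120 and V123). Each CUG960 +dox atrium was above each control atrium, with means of 79.1 ± 5.42 and 49.2 ± 7.59 CPM (log2 fold change 0.69, SE 0.111, adjusted P value 0.0064). V334 was the lowest of the control atria, and without this mouse the log2 fold change was 0.57 with an adjusted P value of 0.00878, which is under the fold limit.

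In ventricles the level of Rgs6 was lower in both genotypes. Controls had 19.7, 17.9 and 19.2 CPM (V327, V333 and V334), and CUG960 +dox mice had 36.7, 38.1 and 35.3 CPM (V119, V120 and V123). The spread within each group was small beside the gap between them, and the fold change was 1.94 (log2 fold change 0.96, SE 0.0791, adjusted P value 0.000167). Leaving out each mouse in turn gave log2 fold changes between 0.92 and 0.99 for Rgs6 and between 0.90 and 1.03 for Adora1 in ventricles, with both called each time.

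The 150 bases before a RefSeq start of both upregulated genes are shown because the genes rose in the same tissues. The sequences are from RefSeq on GRCm38.p6, in which 8 of the 9 members matched; they run 5′ to 3′ on the strand of the gene.
Adora1, chr1:134235458-134235607, minus strand: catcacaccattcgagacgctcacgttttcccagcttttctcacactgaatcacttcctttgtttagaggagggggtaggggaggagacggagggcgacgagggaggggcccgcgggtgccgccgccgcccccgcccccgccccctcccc
Rgs6, chr12:82617349-82617498, plus strand: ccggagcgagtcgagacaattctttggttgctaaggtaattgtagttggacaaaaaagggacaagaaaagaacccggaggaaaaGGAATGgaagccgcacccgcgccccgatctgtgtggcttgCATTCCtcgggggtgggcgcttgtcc
Capitals mark matches to 4 motifs searched on both strands, the TEAD M-CAT core GGAATG, the cAMP response element core TGACG, the GATA motif AGATAA and the NKX2-5 motif CAAGTG. The Rgs6 window held the M-CAT core on both strands, as GGAATG starting at position −66 and as its complement CATTCC at −26, counted back from the start. The Adora1 window held none of the 4 motifs in these letters. Of 32851 promoters of the same length, 7.59% held the M-CAT core, 13.3% the cAMP core, 5.65% the GATA motif and 6.63% the NKX2-5 motif. The Rgs6 window lies inside the span that GENCODE M21 gives for Rgs6, which begins upstream of this RefSeq start, and RefSeq lists another start of Adora1. Which starts are used in these tissues was not tested.

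**Figure D2:**
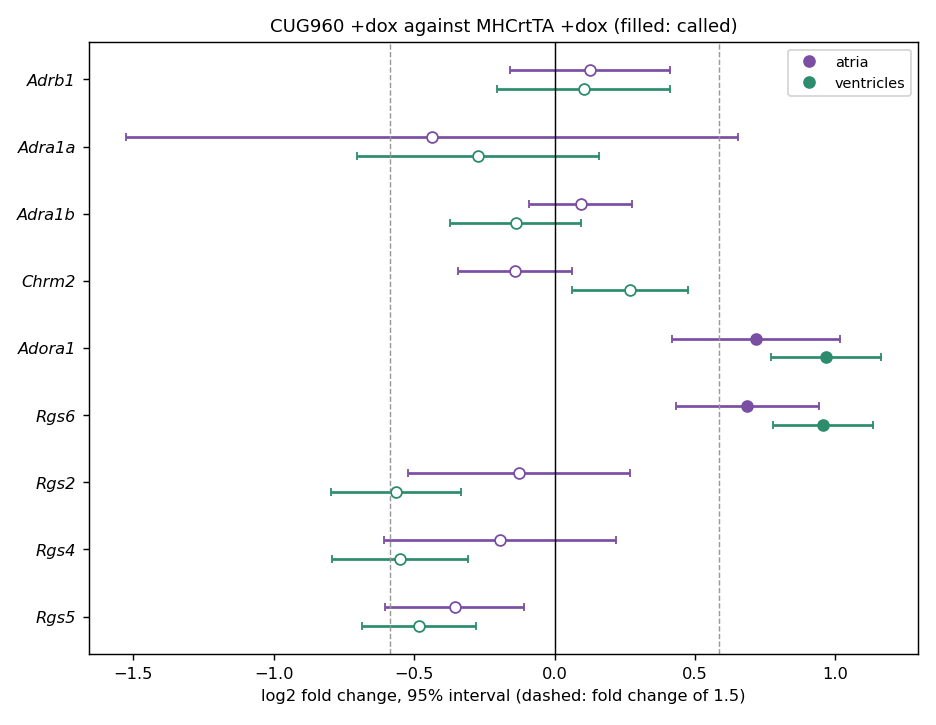
Log2 fold change (x axis) of CUG960 +dox mice against MHCrtTA +dox controls for the 9 genes in atria and in ventricles, with 95% intervals. Filled points were called and dashed lines mark a fold change of 1.5. Adora1 (0.72 and 0.97) and Rgs6 (0.69 and 0.96) lie to the right in both tissues, and Rgs2, Rgs4 and Rgs5 lie to the left in ventricles, short of the dashed line.

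The other RGS members were lower in CUG960 +dox ventricles by less than the fold limit. Rgs2, Rgs4 and Rgs5 passed an adjusted P value of 0.05 there with all CUG960 +dox mice under all controls. In the same test 4.20% of the genes were lower at this P value with no limit on the fold change. None of these 3 RGS genes passed in atria with all mice.

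Rgs5 (chromosome 1, 169655501 to 169695813, plus strand) had 467, 497 and 502 CPM in control ventricles (V327, V333 and V334). CUG960 +dox ventricles had 363 CPM in V119, 310 CPM in V120 and 375 CPM in V123. The log2 fold change was −0.48 (SE 0.0906, adjusted P value 0.0116), from a mean of 488.5 ± 18.7 to 349.2 ± 34.2 CPM. In atria the controls had 89.9, 82.0 and 97.9 CPM and the CUG960 +dox mice 62.7, 66.5 and 81.7 CPM. The highest CUG960 +dox atrium was just under the lowest control atrium, with a log2 fold change of −0.36 (SE 0.108) and an adjusted P value of 0.0636 (0.0163 without V123).

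Rgs4 (chromosome 1, 169741477 to 169747642, minus strand) lies beside Rgs5 on the other strand, with 45663 bases between the gene ends. Control ventricles had 33.7 CPM in V327, 27.9 CPM in V333 and 30.1 CPM in V334. CUG960 +dox ventricles had 18.9, 23.5 and 20.2 CPM (V119, V120 and V123), all under the controls (log2 fold change −0.55, SE 0.108, adjusted P value 0.0141). The adjusted P value was 0.062 without V327, 0.051 without V119 and 0.0509 without V123. In atria, where the level was between 4.25 and 6.94 CPM, the groups overlapped (log2 fold change −0.20, adjusted P value 0.508).

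Within 250000 bases of the pair lie 4 other genes. Hsd17b7 had a log2 fold change of 0.22 in ventricles (adjusted P value 0.433) and was called higher in atria than in ventricles of controls (log2 fold change 1.43). Ddr2, a collagen receptor gene, had −0.32 in ventricles (adjusted P value 0.14) and −0.50 in atria (adjusted P value 0.00239). Nuf2 and Ccdc190 had means of 0.537 and 0.0293 CPM.

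The promoter windows of these neighbors are shown because the genes were lower in the same libraries, with capitals as above.
Rgs5, chr1:169655351-169655500, plus strand: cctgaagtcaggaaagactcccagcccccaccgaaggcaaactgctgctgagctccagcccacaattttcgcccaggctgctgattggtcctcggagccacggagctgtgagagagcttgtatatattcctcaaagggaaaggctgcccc
Rgs4, chr1:169747643-169747792, minus strand: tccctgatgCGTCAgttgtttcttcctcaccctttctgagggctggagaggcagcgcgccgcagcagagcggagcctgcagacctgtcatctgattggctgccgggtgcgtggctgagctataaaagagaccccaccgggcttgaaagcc
The Rgs4 window held CGTCA, the complement of the cAMP core, at position −141, and the Rgs5 window held none of the 4 motifs.

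Rgs2 (chromosome 1, 143999338 to 144004161, minus strand) encodes a small RGS protein that limits Gq signaling. Its level in control ventricles was 43.9 CPM in V327, 42.7 CPM in V333 and 37.4 CPM in V334. CUG960 +dox ventricles had 31.7, 26.2 and 25.9 CPM (V119, V120 and V123), under all controls (log2 fold change −0.57, SE 0.103, adjusted P value 0.0104). Control atria spread from 33.3 CPM in V327 through 45.4 CPM in V333 to 51.9 CPM in V334, and CUG960 +dox atria had 48.0, 35.4 and 36.4 CPM. These atrial groups overlapped, and the log2 fold change of −0.13 (adjusted P value 0.671) turned to 0.02 without V334, the atrial library with high Fos. Its promoter window held the cAMP core TGACG at position −67, and so did that of Adrb1, a member called in no comparison, at −90.

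Markers of vascular cells moved with the RGS genes that were lower. The 9 pericyte markers summed to 597.7 ± 46.2 CPM in control ventricles and 468.6 ± 47.5 CPM in CUG960 +dox ventricles, and to 256.5 ± 27.2 and 185.5 ± 15.0 CPM in atria. Abcc9 was the most abundant of them at a mean of 180 CPM, and cardiomyocytes are also known to express it. Without Abcc9 the sum was 258.8 ± 12.1 CPM in control ventricles and 199.6 ± 7.35 CPM in CUG960 +dox ventricles. None of the 9 was under 0.1 CPM, and only Vtn was called in ventricles, with a log2 fold change of −0.69. In atria Mcam was the only one called (−0.72).

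The 6 endothelial markers, led by Pecam1 at 171 CPM, summed to 782.0 ± 70.6 CPM in control ventricles and 590.9 ± 23.0 CPM in CUG960 +dox ventricles. In atria, where Rgs2, Rgs4 and Rgs5 did not pass, they summed to 619.4 ± 57.7 and 462.2 ± 30.9 CPM, and Pecam1 was called lower (log2 fold change −0.71, adjusted P value 0.00431). The 6 smooth muscle markers, led by Acta2, summed to 372.7 ± 38.2 and 312.4 ± 66.2 CPM in ventricles, with 3 called lower (Myh11, Tagln and Lmod1). Without Acta2, which had a log2 fold change of 0.24 in ventricles, the sums were 252.4 ± 21.4 and 170.3 ± 13.9 CPM. In atria the sums of all 6 were 396.1 ± 69.3 CPM in controls and 421.5 ± 88.8 CPM in CUG960 +dox mice, and Tagln was called higher there (1.21, adjusted P value 0.0364). The part of these cell types in the lower levels of Rgs2, Rgs4 and Rgs5 was not tested. In RNA from whole tissue, fewer cells of a type and less RNA per cell cannot be told apart.

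**Figure D3:**
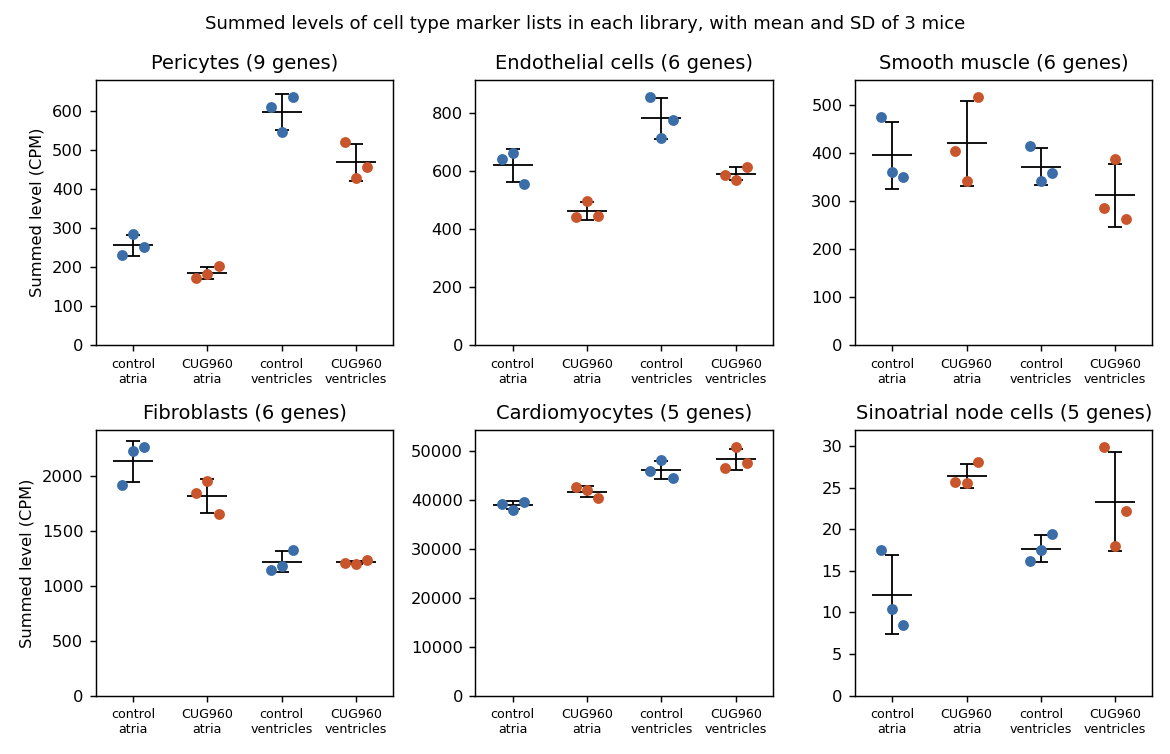
Summed level (CPM, y axis from 0) of 6 cell type marker lists in the 12 libraries, by genotype and tissue, with the mean and SD of 3 mice. Pericyte and endothelial sums are lower in CUG960 +dox mice than in controls in both tissues, and the pericyte sum is lower in atria than in ventricles. This chamber gap is smaller without Abcc9, at 194.0 CPM in control atria and 258.8 CPM in control ventricles.

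Markers of cardiomyocytes, the cells in which the promoter drives the transactivator, were high in all libraries. The 5 cardiomyocyte markers, led by Myh6, summed to 38886 ± 830 CPM in control atria and 41687 ± 1132 CPM in CUG960 +dox atria, and to 46173 ± 1827 and 48262 ± 2159 CPM in ventricles. Without Myh6 the order turned, with 13380 ± 812.7 CPM in control and 11891 ± 777.4 CPM in CUG960 +dox atria and 22861 ± 1999 and 20613 ± 1868 CPM in ventricles. Ryr2, the calcium release channel gene, was called lower in ventricles (log2 fold change −0.67, adjusted P value 0.0148), a call lost without some of the mice. The 5 sinoatrial node markers, led by Hcn4, were low and summed to 12.1 ± 4.76 CPM in control atria and 26.4 ± 1.45 CPM in CUG960 +dox atria. In ventricles the sums were 17.7 ± 1.6 CPM in controls and 23.3 ± 5.99 CPM in CUG960 +dox mice. Between chambers of controls, Hcn4 and Tbx3 were called lower in atria (log2 fold changes −2.1 and −1.4). Shox2 and Vsnl1 were called higher in atria (2.2 and 7.2). Between genotypes in atria, Hcn4 and Vsnl1 were called higher in CUG960 +dox mice (log2 fold changes 2.55 and 1.47). The other tested markers had negative values there, −0.63 for Tbx3 (adjusted P value 0.117) and −0.16 for Shox2 (adjusted P value 0.903). Isl1, which defines the node, was under 0.1 CPM in each library. The part of the node in the atrial rise of Adora1 and Rgs6 was not tested. In ventricles, where both genes rose as well, no node marker was called, and Hcn4 had a log2 fold change of 1.12 with an adjusted P value of 0.0519 and Tbx3 −0.33 with 0.068.

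Nerve terminals hold little RNA of their own. Among the neuron markers, Chat, Slc18a3, Slc5a7 and Snap25 were under 0.1 CPM in each library, and Uchl1 was the most abundant at 14.4 CPM. Dbh, the gene of the enzyme that makes noradrenaline, was called lower in CUG960 +dox mice, from 4.20 ± 0.997 to 1.78 ± 0.0685 CPM in atria (log2 fold change −1.24, adjusted P value 0.00448) and from 3.87 ± 0.758 to 1.38 ± 0.571 CPM in ventricles (−1.49, adjusted P value 0.011). Uchl1 was called higher in ventricles (0.83, adjusted P value 0.00859). The 6 fibroblast markers, led by Dcn, summed to 2140 ± 187.8 and 1822 ± 153.2 CPM in control and CUG960 +dox atria, and to 1222 ± 96.5 and 1216 ± 16.2 CPM in ventricles.

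The receptors of noradrenaline and acetylcholine were not called in either tissue. Adrb1 (chromosome 19, 56722199 to 56733113) had means between 11.5 ± 0.597 CPM in control ventricles and 14.3 ± 1.24 CPM in CUG960 +dox atria. Its log2 fold change was 0.13 in atria (95% interval −0.16 to 0.41) and 0.10 in ventricles (−0.21 to 0.41), with adjusted P values of 0.542 and 0.69. These intervals leave room for a change of up to 0.41 on the log2 scale. V334 was the lowest of the control atria at 10.7 CPM, and without this mouse the atrial log2 fold change was 0.0009 (adjusted P value 0.996).

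Adra1b (chromosome 11, 43774606 to 43901210) had between 27.8 and 33.5 CPM in control atria and between 33.5 and 33.9 CPM in CUG960 +dox atria. In ventricles the controls had between 26.6 and 29.6 CPM and the CUG960 +dox mice between 21.8 and 28.0 CPM. The groups overlapped in both tissues, with log2 fold changes of 0.09 and −0.14 (adjusted P values 0.477 and 0.451).

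Adra1a (chromosome 14, 66635251 to 66771168) was the least abundant member. Control atria had 0.36, 0.54 and 1.10 CPM (V327, V333 and V334), and CUG960 +dox atria had 0.712, 0.508 and 0.257 CPM. V334 again stood highest, and the log2 fold change of −0.44 (SE 0.474, adjusted P value 0.581) turned to 0.13 without it. In ventricles the log2 fold change was −0.27 (SE 0.192, adjusted P value 0.415).

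Chrm2 (chromosome 6, 36388084 to 36528414, plus strand) had 87.0 CPM in V327, 95.7 CPM in V333 and 103 CPM in V334 in control ventricles. CUG960 +dox ventricles had 126, 107 and 112 CPM (V119, V120 and V123), all above the controls. The log2 fold change was 0.27 (SE 0.0918, 95% interval 0.06 to 0.48) with an adjusted P value of 0.098. In atria the controls had 304, 305 and 342 CPM and the CUG960 +dox mice 266, 275 and 322 CPM, which overlapped (log2 fold change −0.14, adjusted P value 0.322). The noncoding gene 9330158H04Rik overlaps Chrm2 on the other strand with a mean of 15.5 CPM, and whether reads were counted by strand is not given in the sources used here.

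A fit of all 12 libraries with tissue, genotype and their interaction tested whether the change differed between tissues, and in it 253 of 18327 genes passed an adjusted P value of 0.05 (1.38%). None of the 9 members passed in edgeR, and none in DESeq2. Only Chrm2 had an unadjusted P value under 0.05 in edgeR (interaction −0.41 on the log2 scale, P value 0.00905, adjusted P value 0.197), and a negative sign means a higher change in ventricles. For Adora1 the interaction was −0.25 (95% interval −0.61 to 0.11), and for Rgs6 it was −0.27 (−0.57 to 0.03). The ventricular decrease of Rgs2 was not shown to differ from the atrial value either (interaction 0.44, 95% interval −0.04 to 0.92, adjusted P value 0.457).

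Atria and ventricles differed far more than the genotypes did. In controls, 6098 of 17451 genes were called between the chambers (34.9%), and 5 of the 9 members were among them. In CUG960 +dox mice the numbers were 5900 of 17559 genes (33.6%) and the same 5 members. Chrm2 and Rgs6 were higher in atria, and Adra1a, Rgs4 and Rgs5 were higher in ventricles, in both genotypes.

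Among the receptors, Chrm2 had a mean of 316.9 ± 21.2 CPM in control atria and 95.4 ± 8.2 CPM in control ventricles, a fold change of 3.31 (log2 fold change 1.73, SE 0.0862, adjusted P value 1.49e-06). In CUG960 +dox mice the fold change was 2.48 (log2 fold change 1.31, SE 0.0985). The 2 genotypes were set side by side, and the difference between them is the interaction given above. Adra1a was lower in atria by 2.41 on the log2 scale in controls (log2 fold change −2.41, SE 0.392), and its value in CUG960 +dox mice was −2.58 (SE 0.312). Without V334, the control value was −2.80.

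Among the RGS genes, the chamber difference in controls was −2.45 on the log2 scale for Rgs5 (SE 0.0841, adjusted P value 2.36e-07), −2.27 for Rgs4 (SE 0.126) and 1.37 for Rgs6 (SE 0.113). In CUG960 +dox mice the values were −2.33 for Rgs5, −1.93 for Rgs4 and 1.10 for Rgs6. Each library of the lower chamber was under each library of the higher chamber for all 5 genes. Such full separation was common. Of 17451 genes tested in controls, 5877 were higher in atria in this way and 5392 were lower. In CUG960 +dox mice the numbers were 5614 and 5377 of 17559. Most pericyte markers moved in the direction of Rgs4 and Rgs5 here too. In each genotype 7 of the 9 were called lower in atria and 1 was called higher. Of all genes tested, 2904 of 17451 were called lower in atria in controls and 2879 of 17559 in CUG960 +dox mice. Without Abcc9 the pericyte sum was 194.0 ± 22.75 CPM in atria and 258.8 ± 12.1 CPM in ventricles of controls. The part of the pericyte markers in the difference was not tested.

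**Figure D4:**
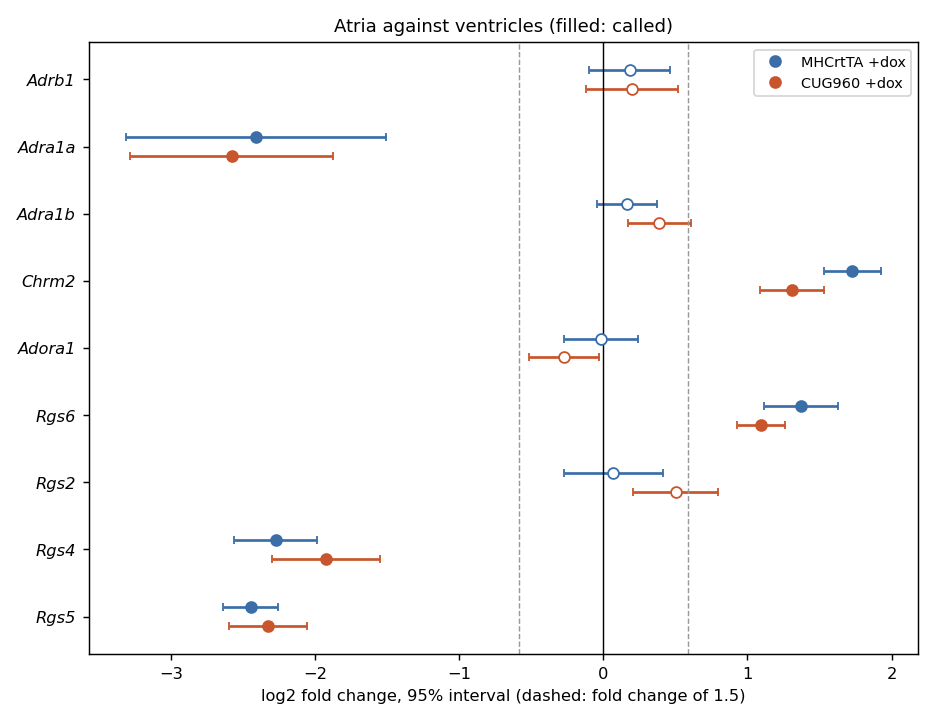
Log2 fold change (x axis) of atria against ventricles for the 9 genes in MHCrtTA +dox and in CUG960 +dox mice, with 95% intervals. Filled points were called and dashed lines mark a fold change of 1.5. Chrm2 and Rgs6 lie to the right and Adra1a, Rgs4 and Rgs5 to the left in both genotypes, and the points of the other 4 genes lie between the dashed lines.

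The 4 members that were not called between chambers were Adora1, Adrb1, Adra1b and Rgs2. Adora1 had a log2 fold change of −0.02 (95% interval −0.27 to 0.24, adjusted P value 0.903) in controls and −0.27 (−0.52 to −0.03, adjusted P value 0.0569) in CUG960 +dox mice, where the value without V123 was −0.43 (adjusted P value 0.0118). In CUG960 +dox mice 2 genes passed the adjusted P value but not the fold limit, Rgs2 (0.50, adjusted P value 0.00959) and Adra1b (0.39, adjusted P value 0.00751). For Rgs2 the value in controls was 0.07 and turned to −0.14 without V334.

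Levels of different genes were compared per kilobase of exon. In control ventricles, the mean was 107.5 ± 4.12 CPM per kilobase for Rgs5, 15.8 ± 1.36 for Chrm2, 11.4 ± 0.952 for Rgs2, 9.86 ± 0.943 for Rgs4 and 8.29 ± 0.439 for Adra1b. Adora1 came next at 4.91 ± 0.252, then Adrb1 at 3.40 ± 0.176, Rgs6 at 1.89 ± 0.0913 and Adra1a at 0.405 ± 0.101. The neighbors Rgs2 and Rgs4 overlapped in this order, and the others did not.

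In CUG960 +dox ventricles, Adora1 came next in CPM per kilobase at 9.59 ± 0.849 after Rgs5 at 76.8 ± 7.52 and Chrm2 at 19.0 ± 1.66. Its lowest mouse, at 8.76, was barely above the highest of Rgs2, at 8.73. Rgs6 at 3.66 ± 0.141 and Adrb1 at 3.65 ± 0.69 could not be separated.

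In control atria, the first place was held by Chrm2 at 52.4 ± 3.51 CPM per kilobase, followed by Rgs5 at 19.8 ± 1.75, Rgs2 at 12.01 ± 2.61 and Adra1b at 9.33 ± 0.96. Rgs6 (4.91 ± 0.757), Adora1 (4.87 ± 0.724) and Adrb1 (3.88 ± 0.618) overlapped, as did Rgs2 and Adra1b. Rgs4 was at 2.05 ± 0.3 and Adra1a at 0.0765 ± 0.0444. In CUG960 +dox atria, Adora1 (8.01 ± 1.07) and Rgs6 (7.90 ± 0.541) again overlapped and both lay above Adrb1 (4.23 ± 0.365).

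The genes with the most similar profile were sought among 13112 genes whose mean reached 1 CPM, by the root mean square difference of centered log2 CPM over the 12 libraries. The nearest to Adora1 were Sec61a2 (0.132), Cdk16 (0.16) and 4930431P19Rik (0.165). Cdk16, which encodes a cyclin-dependent kinase, had means of 144 and 280 CPM in control and CUG960 +dox atria and 157 and 275 CPM in ventricles. The nearest to Rgs6 were Mtss1 (0.192), Ddr1 (0.198) and Sema3a (0.203), a guidance cue for sympathetic axons.

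For Chrm2 the nearest were Epha7 (0.127), Mr1 (0.138) and Col14a1 (0.139). Rgs5 was nearest to Abcc9 (0.153), which encodes a sulfonylurea receptor and is on the pericyte list, then Gm31166 (0.156) and Slc28a2 (0.17). Rgs4 was nearest to Ly6a (0.132), Ly6c1 (0.153) and Tacc2 (0.153), and Adra1a to Tmem52 (0.345), Vtn (0.404) and P2ry14 (0.425). These distances describe the 12 libraries, which share mice, tissues and genotypes.

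Other genes of the pathway were taken from lists of receptors, RGS genes, G protein subunits, receptor kinases and arrestins, effectors and transmitter metabolism. Of the genes on these lists, the immediate early gene list and the marker lists, 12 were called in atria and 24 in ventricles. Of them, 5 and 17 lost the call in at least 1 alternative. Of 18 other RGS genes tested in atria, 2 were called higher and 0 lower, and of 16 in ventricles 2 were called higher and 0 lower. Rgs16, an RGS gene of Gi and Gq signaling, had 1.06, 1.02 and 1.51 CPM in control atria and 8.50, 8.14 and 8.92 CPM in CUG960 +dox atria. It rose by a log2 fold change of 2.83 (SE 0.164, adjusted P value 6.22e-05), the largest of the pathway genes called in atria whose mean reached 1 CPM. Ventricles had 0.84, 0.57 and 0.384 CPM in controls and 3.28, 2.07 and 3.90 CPM in CUG960 +dox mice (log2 fold change 2.37, SE 0.319, adjusted P value 0.00238). The other called genes, Rgs8 in atria and Rgs9 in ventricles, had group means of at most 0.298 and 0.134 CPM there.

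Gnb5, whose product is the obligate partner of RGS6, was not called. Its log2 fold change was 0.17 in atria (SE 0.054, adjusted P value 0.0732) and 0.11 in ventricles (SE 0.0819, adjusted P value 0.437). Rgs7, a relative of Rgs6, was called higher in atria than in ventricles in both genotypes (2.90 in controls and 3.32 in CUG960 +dox mice).

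**Figure D5:**
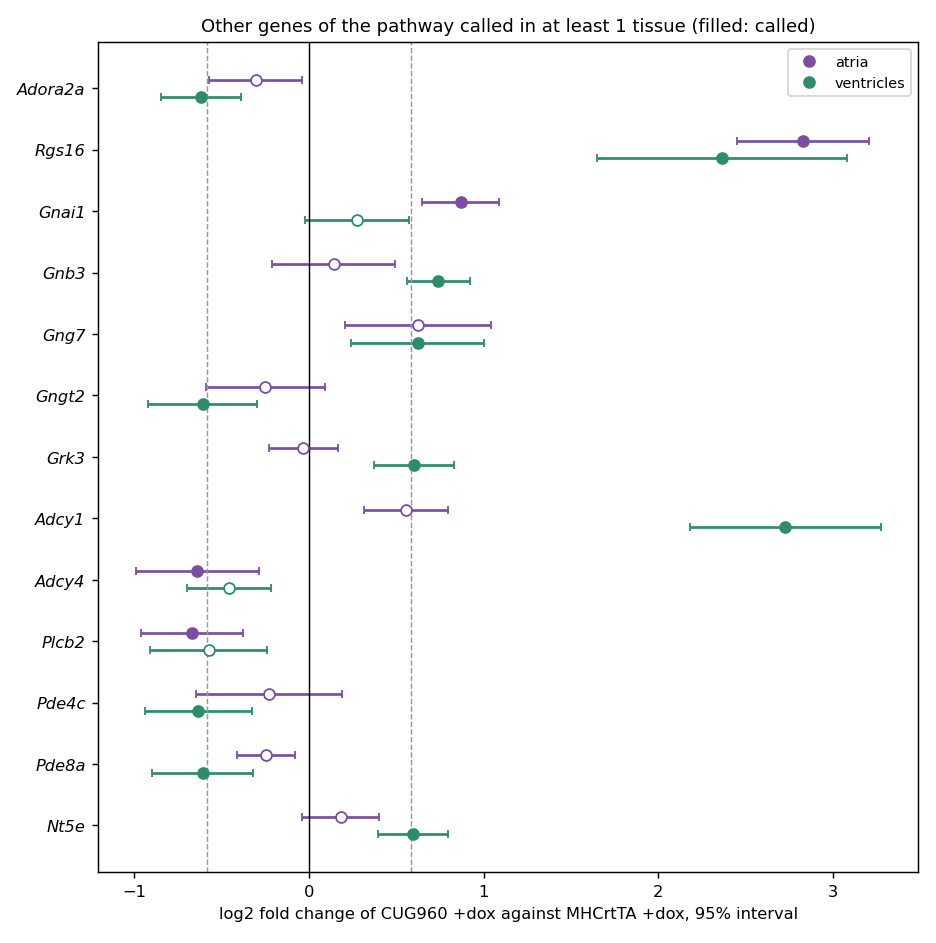
Log2 fold change (x axis) of CUG960 +dox mice against MHCrtTA +dox controls, with 95% intervals, for the 13 other pathway genes that were called in at least 1 tissue and averaged 1 CPM or more there. Filled points were called and dashed lines mark a fold change of 1.5. Rgs16 is far to the right in both tissues (2.83 and 2.37), and Adcy1 in ventricles (2.73).

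Of the G protein subunits, 1 of 26 tested was called higher in atria and 0 lower, and of 25 in ventricles 2 were called higher and 1 lower. Gnai1, a Gi α subunit, rose in atria from 5.91 ± 0.537 to 10.8 ± 0.618 CPM (log2 fold change 0.87, SE 0.0972, adjusted P value 0.0014) and had 0.28 in ventricles (adjusted P value 0.227). Gnb3 rose in ventricles (0.74) and so did Gng7 (0.62), while Gngt2 fell by 0.61 on the log2 scale. The call of Gnb3 held in each alternative with the same fold limit, while those of Gng7 and Gngt2 were each lost when some of the mice were left out. The median log2 fold change of the list was −0.08 in atria and −0.11 in ventricles.

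Among 24 effectors tested in atria, 0 were called higher and 2 lower, Adcy4 (−0.64) and Plcb2 (−0.67). Among 25 in ventricles 1 was called higher and 2 lower. Adcy1, a calcium-activated adenylyl cyclase, had 1.084, 1.02 and 1.64 CPM in control ventricles and 7.27, 11.0 and 6.61 CPM in CUG960 +dox ventricles (log2 fold change 2.73, SE 0.244, adjusted P value 0.000262). In atria, where its level was 126.3 ± 10.4 CPM in controls and 185.8 ± 25.7 CPM in CUG960 +dox mice, its log2 fold change was 0.56 with an adjusted P value of 0.0117, under the fold limit. The phosphodiesterase genes Pde4c (−0.63) and Pde8a (−0.61) were called lower in ventricles. The calls of Adcy4, Plcb2, Pde4c and Pde8a were among those lost without some of the mice.

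The channel genes downstream of both Gi coupled receptors were among the effectors. Kcnj5 passed the adjusted P value but not the fold limit in both tissues (log2 fold change 0.31 in atria, adjusted P value 0.0347, and 0.50 in ventricles, adjusted P value 0.0361). Kcnj3 passed in neither, with 0.14 in atria (adjusted P value 0.253) and −0.13 in ventricles (adjusted P value 0.416). Both were higher in atria than in ventricles of controls, by log2 fold changes of 2.72 for Kcnj3 and 2.44 for Kcnj5, the same direction as Chrm2. Gnao1, the Go α subunit, was likewise higher in control atria, at 179.5 ± 5.99 CPM against 24.6 ± 2.6 CPM.

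Of the other adrenergic, muscarinic and adenosine receptors, 10 were tested in atria with 0 called in edgeR, and 8 in ventricles with 1 called lower. Adora2a, an adenosine receptor known for dilating coronary vessels, had 9.83, 10.4 and 9.22 CPM in control ventricles and 6.28, 6.85 and 6.04 CPM in CUG960 +dox ventricles (log2 fold change −0.62, SE 0.102, adjusted P value 0.00648). This was the opposite direction to Adora1 in the same libraries. Its call was lost under the fold limit without V333 or without V123. The median log2 fold change of the list was −0.58 in atria and −0.22 in ventricles.

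None of 7 receptor kinase and arrestin genes was called in atria, and 1, Grk3, was called higher in ventricles (0.60, SE 0.102, adjusted P value 0.00761), a call that came under the fold limit without some of the mice. Of the genes for transmitter breakdown and uptake, 0 of 12 were called in atria and 1 of 11 in ventricles, where Nt5e, the ectonucleotidase that forms adenosine from AMP, rose from 11.5 to 17.3 CPM (0.60, SE 0.0893, adjusted P value 0.004). Of 14 immediate early genes 0 were called in atria and 1 in ventricles, Nr4a1 (0.96, adjusted P value 0.0367), which was lost when most of the mice were left out in turn.

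Between chambers of controls, 34.9% of the 17451 genes tested were called, with 3194 higher in atria and 2904 lower. Of 10 other receptors tested, 2 were called higher in atria and 5 lower. Chrm3 (2.14) and Adora2a (−2.02) were the largest of those that averaged 1 CPM or more. For the other RGS genes the counts were 7 higher and 2 lower of 17 tested, and for G protein subunits 5 and 5 of 26. They were 4 and 0 of 7 for kinases and arrestins, 7 and 6 of 25 for effectors, and 6 and 2 of 12 for transmitter genes. Gng2 (4.48), Adcy1 (6.65), Arrb1 (1.72) and Ache (1.92), the gene of acetylcholinesterase, were higher in atria. Gnb3 (−3.18), Adcy9 (−1.45) and Adk (−1.18) were higher in ventricles.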

How the data were processed

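The authors sequenced stranded, poly(A)-selected RNA and deposited expected counts per gene, estimated by RSEM 1.3.1 on GRCm38 (mm10), with no scaling for library size; the values were whole numbers. From these, TMM library sizes, normalized CPM and quasi-likelihood tests were computed in R 4.3.3 by edgeR 4.0.16. filterByExpr removed genes with few counts, each tissue or genotype was fitted alone, and the interaction was fitted over all 12 libraries. Alternatives were DESeq2 1.42.0, RLE size factors, other filters and fold limits, a single fit, a block for the mouse, and fits without each mouse. Atria and ventricles came from the same mice, and after subtraction of group means, libraries of the same mouse correlated at r between 0.0302 and 0.135 over 18327 genes. Exon lengths were from GENCODE M21. The steps were tested on simulated data. The members and the gene lists were chosen with earlier results of these data known. Named genes were the members, called list genes that averaged 1 CPM or more (up to 8 a list and comparison), each marker list's most abundant gene and near-zero defining genes, and the 3 nearest profiles. Rgs8, Rgs9, Gnb5, Kcnj3 and Kcnj5 in the genotype comparison, Ddr2, Hsd17b7, Nuf2, Ccdc190 and the immediate early genes of V334 are outside this rule. A gene that the rule chose is not reported here. P values rest on mice as labelled. Figures were drawn with matplotlib 3.10.9.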

Additional observations from a re-analysis of the deposited data

Results flagged for a closer look

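None of the 9 members had a change in CUG960 +dox mice that differed between atria and ventricles at an adjusted P value under 0.05. Among the other genes named, 7 did by the interaction term of edgeR over all 12 libraries, and each is given as the atrial minus the ventricular log2 fold change. Adcy1 had −2.17 (SE 0.277, adjusted P value 0.00226) and Bmp10 4.10 (SE 0.511, adjusted P value 0.00208), and both held in each alternative. Bmp10, an atrial growth factor gene, had 2.43, 2.39 and 3.75 CPM in control ventricles and 0.0343, 0.275 and 0.208 CPM in CUG960 +dox ventricles. In controls it was higher in atria than in ventricles by a log2 fold change of 9.08. The same ventricular libraries also differed in the atrial gene Myl7, as given above, with V123 the highest. The part of atrial tissue in the ventricular values of Bmp10 was not tested. Grk3 had −0.63 (adjusted P value 0.0457), Adcy5 −0.45 (0.0368), Maoa 0.79 (0.0379), Tagln 1.85 (0.0445) and Nppa −1.72 (0.0494), and these 5 were lost in 4 or more of the alternatives, mostly those that left out a mouse. Adcy5 had means of 110.3 and 147.2 CPM in control and CUG960 +dox ventricles and 143.2 and 139.5 CPM in atria. Maoa, a monoamine oxidase gene, had 5.25 and 3.97 CPM in ventricles and 14.6 and 19.0 CPM in atria.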

How the results depend on the processing

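Over the alternatives, 459 values of the members were recomputed and 446 kept their direction and their side of the threshold. In atria, the members called fell to 1 without V334 (range 1 to 2 with a mouse left out), because Rgs6 came under the fold limit. Where the size of the log2 fold change had to reach 1.5, the limit in the study's methods (its results give a fold change of 1.5, as used here), no member was called in either tissue (0 and 0) and 3 between chambers of CUG960 +dox mice. Without a fold limit 5 members passed in ventricles. Leaving out V333 or V120 took Rgs4, and V334 or V119 Rgs2, over the fold limit in ventricles. Signs turned for members that were not called. With a mouse left out, Adra1a in atria ranged from −0.80 to 0.13 (V334 left out), Rgs2 in atria from −0.2935 to 0.02032 (V334), Rgs2 between chambers of controls from −0.14 (V334) to 0.27, and Adora1 there from −0.06593 to 0.05859 (V327). The interaction of Adrb1 ranged from −0.06493 (V123, and −0.06459 without V334) to 0.11, and that of Adra1a from −0.49 to 0.23 (V334, and 0.14 without V123). The numbers of genes called were 216 in atria, 199 in ventricles, 2233 between chambers of controls and 2200 of CUG960 +dox mice at that limit, and 2573, 1680, 9726 and 9517 without a limit. The interaction was passed by 660 genes in DESeq2 and by 74 to 131 with a mouse left out. The cause of these shifts other than the limits and the smaller samples was not tested. The mouse as a replicate block, which pairs the chambers, changed no call of a member (5 between chambers in each genotype, 0 for the interaction). Of 231 calls of the other genes on the lists, 168 held in each alternative and none reversed. Of the members, Adra1a in atria had the fewest counts, at most 173, and its interval spans −1.53 to 0.65 on the log2 scale.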
